A study of Caenorhabditis elegans with 8 samples.

Results

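The genes described here are 10 genes by which the touch receptor neurons of Caenorhabditis elegans are built and recognised: unc-86, mec-3, mec-7, mec-12, mec-17, mec-4, mec-10, mec-2, mec-1 and mec-18. They were taken by name, out of 46904 genes in the count files, by matching WormBase identifiers to symbols in the WBcel235 annotation. Whole-worm RNA was sequenced from 4 genotypes with 2 libraries each, labelled as separate biological repeats. The genotypes were the wild type N2, strain CF1041 with the insulin/IGF-1 receptor allele daf-2(e1370), strain IJ501 with hel-1(gk148684), and strain IJ1121 with both mutations. All animals were kept at 20 °C, grown from bleach-synchronised eggs and collected on day 1 of adulthood, and each genotype is represented by a single strain. The design asks how the hel-1 mutation alters transcript levels in wild-type and in daf-2 animals.

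Touch receptor neurons are a small set of sensory cells that lie against the cuticle and respond to gentle touch along the body. The transcription factors UNC-86 and MEC-3 act together to switch on their identity, and their targets supply large microtubules, a sodium channel of the DEG/ENaC family and the extracellular material that holds the cell to the skin. The genes were first found through animals that no longer respond to touch. Several are also used elsewhere: unc-86 is active in many other neurons, mec-3 and mec-10 also in the FLP and PVD neurons, and mec-12 in further neurons. A level in RNA of the whole animal is therefore a sum over cells, and fewer cells of a type cannot be told apart from less RNA per cell. HEL-1 is a DEAD-box RNA helicase related to the mammalian mRNA export and splicing factor UAP56, and DAF-2 signalling holds back the FOXO factor DAF-16.

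The libraries held between 31555368 and 37552513 counts. Replicates correlated at r between 0.979 and 0.993 on log2 CPM over 13722 genes tested, lowest in daf-2. CPM is a gene's count per 1000000 counts of its library, with library sizes adjusted by TMM, a method that allows for differences in RNA composition. The hel-1 transcript lay between 468 and 618 CPM in all libraries and passed the test in none of the 4 comparisons between genotypes, so the lesion itself cannot be read from counts per gene. All 10 genes had at least 2 counts in every library. Together they took between 10.5 and 41.6 CPM, from 336 to 1670 counts. Small counts limit what can be seen. mec-3, mec-4, mec-10 and unc-86 had at most 36 counts in any library. mec-4 reached 10 counts in just 2 libraries, through which it passed the filter on low counts. unc-86 reached 10 counts in 5, both of daf-2, both of hel-1 and hel-1;daf-2 replicate 1. It passed mainly through the single mutants, where it is high.

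Across the 4 genotypes, 9 of the 10 genes followed a common pattern: low in wild type, high in hel-1, high in daf-2 replicate 2, and low again in hel-1;daf-2. The exception was mec-3, with 5 to 15 counts per library, and whether it differs from the others was not tested. For mec-4 the fall from hel-1 is unclear. It had 6 counts both in hel-1 replicate 2 and in hel-1;daf-2 replicate 1. Summed over the 10 genes, wild type stood at 20.1 and 14.7 CPM, daf-2 at 24.5 and 41.6, hel-1 at 39.3 and 34.7, and the double mutant at 14.0 and 10.5. The hel-1 libraries did not overlap those of wild type or of the double mutant. The difference between the hel-1 effects in the 2 backgrounds passed the test for mec-7 and mec-17, by the quasi-likelihood test of edgeR with Benjamini-Hochberg adjustment over all genes at 0.05, which is the test behind every adjusted p that names no other tool.

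**Figure D1:**
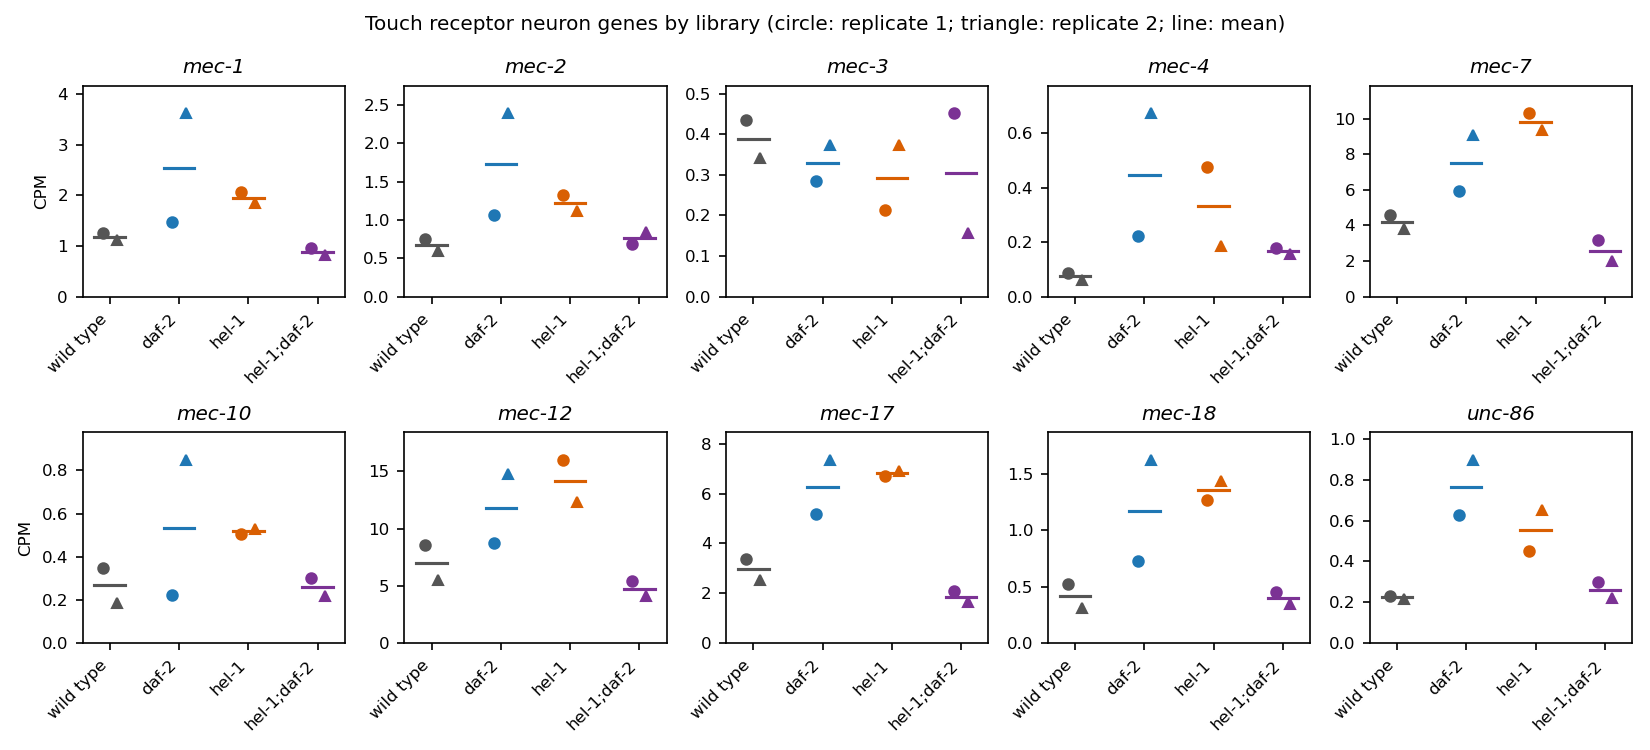
Each panel shows one gene, with CPM on the vertical axis from 0 and the 4 genotypes along the horizontal axis. Circles are replicate 1, triangles replicate 2 and lines the mean of both. In 9 panels the hel-1 points lie above both the wild-type and the hel-1;daf-2 points. For mec-4, hel-1 replicate 2 and hel-1;daf-2 replicate 1 both had 6 counts and part only by library scaling. The mec-3 panel shows no such order, and daf-2 replicate 2 lies above replicate 1 in all 10.

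The microtubule genes gave most of the counts. mec-7 (WBGene00003171, chromosome X, 7774856 to 7776689, minus strand) encodes the beta-tubulin of the large touch-neuron microtubules. It stood at 4.56 and 3.82 CPM in wild type, 5.93 and 9.08 in daf-2, 10.3 and 9.35 in hel-1 and 3.19 and 1.98 in hel-1;daf-2. The 4 genotypes did not overlap, with hel-1 at the top and the double mutant at the bottom. In the double mutant against hel-1, mec-7 fell 3.79-fold (log2 fold change -1.92 ± 0.29 SE, adjusted p = 0.0108). It was 2.34-fold higher in hel-1 than in wild type (1.23 ± 0.28, adjusted p = 0.137) and 2.91-fold lower in hel-1;daf-2 than in daf-2 (-1.54 ± 0.29, adjusted p = 0.181), neither of which passed.

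mec-12 (WBGene00003175, chromosome III, 3131574 to 3139234, minus strand) encodes the alpha-tubulin that pairs with MEC-7 and carries the acetylated lysine of these microtubules. Its levels were 8.55 and 5.50 CPM in wild type, 8.73 and 14.8 in daf-2, 16.0 and 12.3 in hel-1 and 5.38 and 4.14 in hel-1;daf-2. One daf-2 library lay near the upper wild-type library and the other between the hel-1 libraries, and the double mutant lay below every other library. The gene fell 2.97-fold in hel-1;daf-2 against hel-1 (-1.57 ± 0.32, adjusted p = 0.0306).

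mec-17 (WBGene00003178, chromosome IV, 7983802 to 7987183, minus strand) encodes the acetyltransferase that modifies alpha-tubulin. It stood at 3.37 and 2.55 CPM in wild type, 5.20 and 7.35 in daf-2, 6.71 and 6.92 in hel-1 and 2.07 and 1.66 in hel-1;daf-2. Both single mutants lay above wild type, with hel-1 inside the span of daf-2, and the double mutant lay below every other library. mec-17 rose 2.12-fold in daf-2 against wild type (1.09 ± 0.24, adjusted p = 0.0253) and fell 3.64-fold in hel-1;daf-2 against hel-1 (-1.86 ± 0.25, adjusted p = 0.00712). Its 3.36-fold lower level in hel-1;daf-2 than in daf-2 did not pass (-1.75 ± 0.25, adjusted p = 0.113), where its p ranked 14 among 13722 genes.

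Both transcription factors had few counts. unc-86 (WBGene00006818, chromosome III, 8212740 to 8216336, minus strand), a POU homeobox gene that acts upstream of mec-3, had 8 and 7 counts in wild type, 20 and 36 in daf-2, 17 and 21 in hel-1 and 10 and 7 in hel-1;daf-2. In CPM these were 0.233 and 0.217, 0.630 and 0.898, 0.451 and 0.655, and 0.301 and 0.220. It rose 3.37-fold in daf-2 against wild type (1.75 ± 0.45, adjusted p = 0.0353). The filter on low counts kept it mainly through the single mutants, where it is high, so this call adds no support. mec-3 (WBGene00003167, chromosome IV, 10458816 to 10461867, minus strand), the LIM homeobox partner of unc-86, had 15 and 11 counts in wild type, 9 and 15 in daf-2, 8 and 12 in hel-1 and 15 and 5 in hel-1;daf-2. Its genotypes overlapped in every comparison, and its log2 fold changes were between -0.42 and 0.07. With counts this low the 95% interval of the hel-1 difference from wild type ran from -1.80 to 0.97, a range of changes that counts this low cannot tell apart.

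The channel complex is represented by 3 genes. mec-4 (WBGene00003168, chromosome X, 16803321 to 16807115, minus strand) encodes a pore-forming DEG/ENaC subunit needed for the touch current, and had 3 and 2 counts in wild type, 7 and 27 in daf-2, 18 and 6 in hel-1 and 6 and 5 in hel-1;daf-2. Both wild-type libraries lay below all others, and replicates of the single mutants differed widely. mec-10 (WBGene00003174, chromosome X, 8465760 to 8470314, minus strand), the related subunit of the same channel, had 12 and 6 counts in wild type, 7 and 34 in daf-2, 19 and 17 in hel-1 and 10 and 7 in hel-1;daf-2. One daf-2 library lay between the wild-type libraries and the other above every library, while hel-1 lay above both wild type and the double mutant. mec-2 (WBGene00003166, chromosome X, 5567754 to 5590830, plus strand) encodes a stomatin-like membrane protein that raises channel activity. It stood at 0.756 and 0.590 CPM in wild type, 1.07 and 2.39 in daf-2, 1.33 and 1.12 in hel-1 and 0.691 and 0.847 in hel-1;daf-2. No channel gene passed the test in any of the 5 comparisons with edgeR; at an unadjusted p under 0.05 mec-2 and mec-4 were higher in daf-2 than in wild type, mec-4 in hel-1 than in wild type, and mec-2 lower in hel-1;daf-2 than in daf-2, while both passed that level in the interaction. DESeq2 called none of them either.

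mec-1 (WBGene00003165, chromosome V, 6956537 to 6966425, plus strand) encodes a secreted protein with EGF and Kunitz domains that attaches the neurons to the skin and localises the channel. It stood at 1.25 and 1.12 CPM in wild type, 1.48 and 3.62 in daf-2, 2.07 and 1.84 in hel-1 and 0.962 and 0.815 in hel-1;daf-2, with no overlap of the double mutant with any other genotype. mec-18 (WBGene00003179, chromosome X, 4271165 to 4274216, minus strand) encodes a protein related to acyl-CoA ligases. Its CPM values were 0.523 and 0.310 in wild type, 0.725 and 1.62 in daf-2, 1.27 and 1.43 in hel-1 and 0.451 and 0.345 in hel-1;daf-2. The double mutant lay within the wild-type range for mec-18 and below it for mec-1. Neither gene was called by edgeR, and DESeq2 called mec-18 in the interaction only. mec-18 was 3.37-fold lower in hel-1;daf-2 than in hel-1 (-1.75 ± 0.48, adjusted p = 0.0820) and mec-1 was 2.19-fold lower (-1.13 ± 0.42, adjusted p = 0.164).

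Per length of exon, the order of the genes was led by the tubulin genes and mec-17 in every genotype. In wild type mec-12 stood at 4.36 ± 1.34 CPM per kb (SD, n = 2), mec-17 at 2.87 ± 0.566 and mec-7 at 2.68 ± 0.337, and the ranges of the last 2 overlapped. A gap of about an order of magnitude followed, to mec-3 at 0.290 ± 0.0498 CPM per kb. mec-18, mec-1, unc-86, mec-2 and mec-10 came next, between 0.202 ± 0.0728 and 0.107 ± 0.0461, and mec-4 was lowest at 0.0314 ± 0.00746. Of these, mec-18 overlapped mec-1 and unc-86, and mec-2 overlapped mec-10. In daf-2 and hel-1 the same genes led, and mec-3 moved from place 4 to places 8 and 7, where it overlapped both of its neighbours. Exon lengths are the union over annotated transcripts, so the per-length level of mec-2 and mec-1, which have long alternative exons, is understated if shorter transcripts prevail.

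**Figure D2:**
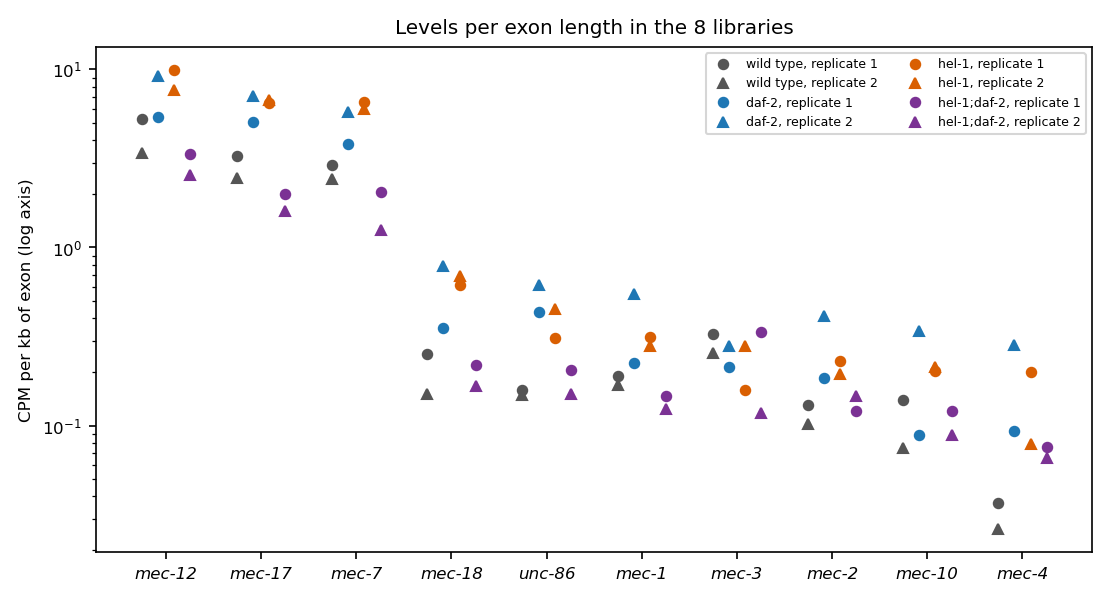
Levels of the 10 genes in CPM per kb of exon, on a log axis, ordered by their mean over the 8 libraries; colour gives the genotype and shape the replicate. mec-12, mec-17 and mec-7 form an upper group in every library, and the other 7 genes lie below 1 CPM per kb.

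The microtubule genes, which had the most counts, had the narrowest ratios to each other. The ratio of mec-17 to mec-7, per kb, lay between 0.987 and 1.33 in the 8 libraries, a span of 1.35-fold, while mec-7 itself spanned 5.19-fold and mec-17 4.42-fold. The ratio of mec-12 to mec-7 lay between 1.28 and 2.03. The ratios of the 7 lower genes to mec-7 spanned more: 2.10-fold for mec-1, 2.20-fold for mec-18, 2.53-fold for unc-86, 2.98-fold for mec-10, 3.57-fold for mec-2, 4.88-fold for mec-4 and 6.85-fold for mec-3. Several of these spans come near that of mec-7 itself. The widest were those of mec-3 and mec-4, with 5 to 15 and 2 to 27 counts per library, where mec-7 had 63 to 387. Noise of small counts widens such ratios, and its part was not tested. Over the 8 libraries, which all genes share with their genotype and depth, the 45 pairs of genes had a median Pearson r of 0.80 on log2 CPM. mec-7 with mec-12 and mec-7 with mec-17 reached 0.98. Each gene was then set against the mean of the other 9: r was 0.11 for mec-3 and between 0.77 and 0.97 for the rest.

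The comparison of hel-1 with wild type addresses the effect of the helicase mutation in otherwise normal animals. In hel-1, 9 of the 10 genes had both libraries above both wild-type libraries, where 30.0% of all genes tested did so, and mec-3 was the exception. Their median log2 fold change was 1.11, against 0.02 for all genes tested. By edgeR none of the 10 was called, where 0.364% of all genes were called higher; at an unadjusted p under 0.05, 6 were higher (mec-4, mec-7, mec-12, mec-17, mec-18 and unc-86), where 8.91% of all genes were. Of these, mec-4 passed the filter on low counts only through daf-2 replicate 2 and hel-1 replicate 1, where it is high. Its other hel-1 library had 6 counts, so it adds no support. unc-86 passed mainly through the single mutants, where it is high, and adds no support either. The smallest adjusted p was that of mec-17 (0.0989), which was 2.30-fold higher (1.20 ± 0.24).

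Calls in this comparison changed with the libraries and tool used. In a fit of wild type and hel-1 alone, mec-7 (adjusted p = 0.0251) and mec-17 (adjusted p = 0.0435) were called, and DESeq2 called mec-7, mec-12 and mec-17 (adjusted p = 0.00728, 0.0374 and 0.0160). Without daf-2 replicate 1, which enters only through the shared spread, mec-7, mec-17 and mec-18 were called (adjusted p = 0.0409, 0.0324 and 0.0489), and without daf-2 replicate 2, mec-7 and mec-17 (0.0393 and 0.0308). Over all alternatives the adjusted p of mec-7 ran from 0.00728 to 0.754 and that of mec-17 from 0.0141 to 0.670, with log2 fold changes that stayed between 1.10 and 1.35 and between 1.01 and 1.41. General neuron markers, 30 genes fixed as a list, include genes of synapses and neurotransmitter use and others such as unc-44. They summed to 499 to 514 CPM in wild type and 562 to 572 in hel-1. Of 27 tested none was called (24 with a positive fold change, median 0.41, and 3 at an unadjusted p under 0.05). In 21 of the 27 both hel-1 libraries lay above both wild-type libraries, and in 2 both lay below. Hypodermis markers summed to 731 to 934 and 1090 to 1130 CPM, body wall muscle markers to 2200 to 2480 and 2720 to 2760, and germline and oocyte genes to 13200 to 13900 and 11300 to 12200. The part of these tissues in the result was not tested. The neuron marker list holds none of the 10 genes, and its sum is led by unc-44, snb-1 and unc-11. Set against that separate sum, the summed CPM of the 10 genes came to 3.92 and 2.94% of its size in wild type and 6.99 and 6.07% in hel-1. The leading genes had log2 fold changes of 0.26, 0.06 and -0.09 in hel-1, while the 27 tested ran from -0.12 to 1.13 (ida-1). The share therefore does not set the 10 genes apart from single neuron markers.

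**Figure D3:**
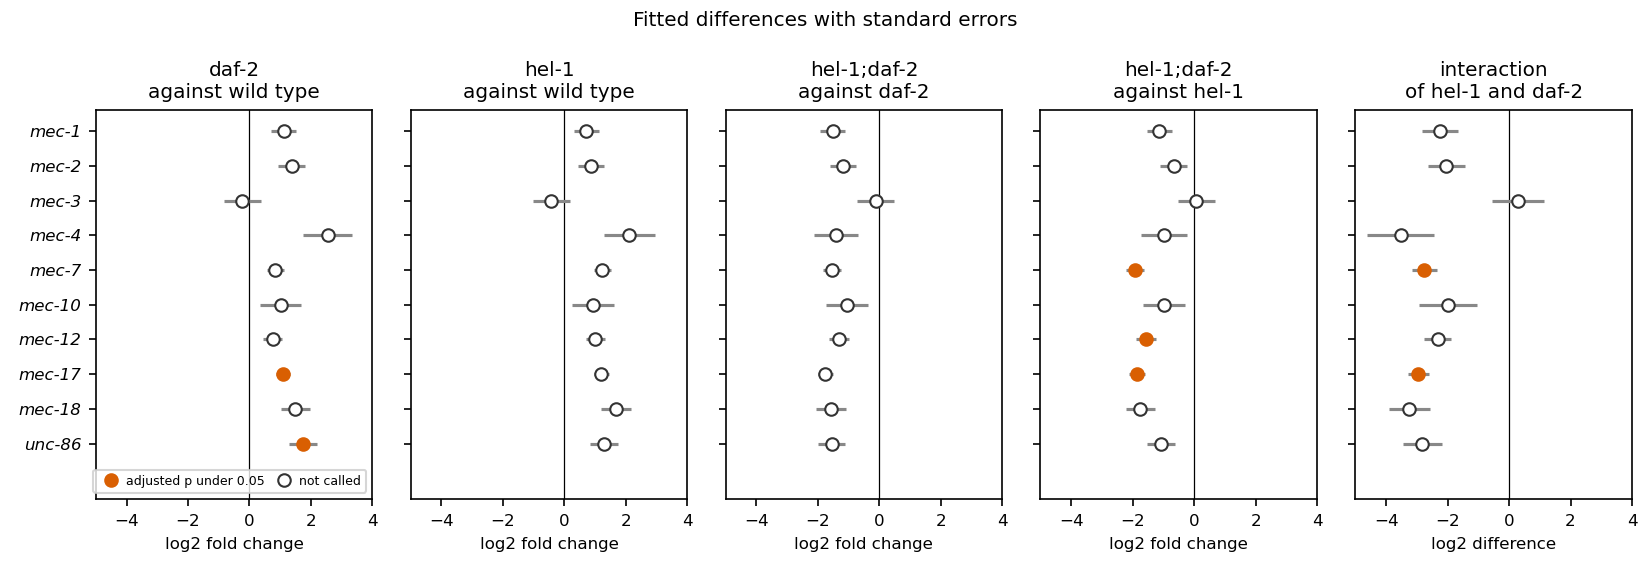
Fitted log2 fold changes (points) with standard errors (bars) of the 10 genes in the 4 comparisons, and in the last panel the log2 difference between the hel-1 effects in the daf-2 and wild-type backgrounds. Filled points passed an adjusted p of 0.05: mec-17 and unc-86 in daf-2, mec-7, mec-12 and mec-17 in hel-1;daf-2 against hel-1, and mec-7 and mec-17 in the interaction.

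The comparison of daf-2 with wild type addresses reduced insulin signalling. mec-17 and unc-86 rose, 2 of 10, where 12.1% of all genes were called higher. unc-86 passed the filter on low counts mainly through the single mutants, where it is high, so its call adds no support. Of the 10 genes 8 had both daf-2 libraries above both wild-type libraries, where 35.7% of all genes did. Of the 8, mec-4 passed the filter only through libraries where it is high and unc-86 mainly so, and neither adds support. The median log2 fold change of the 10 was 1.10, against 0.10 for all genes. Both calls ended without daf-2 replicate 2 (mec-17 at 0.81, unc-86 at 1.47), and also when either wild-type library or either double-mutant library was left out. That of unc-86 ended as well without either hel-1 library. Without daf-2 replicate 1 the median log2 fold change of the 10 genes was 1.62, against 0.14 for all genes. Among the neuron markers 4 of 27 rose: the synaptic vesicle priming gene unc-13 (1.95 ± 0.18, adjusted p = 0.00108), the synaptotagmin gene snt-1 (1.43 ± 0.31, adjusted p = 0.0219), the dense-core vesicle gene ida-1 (1.54 ± 0.38, adjusted p = 0.0312) and the ankyrin gene unc-44 (0.56 ± 0.14, adjusted p = 0.0351).

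The daf-2 replicates differed more than those of any other genotype. All 10 genes were higher in replicate 2 than in replicate 1, with a median log2 difference of 0.93, where the median of all genes was 0.03. The shift ran the other way in wild type, where 0 of 10 genes were higher in replicate 2 (median -0.32, all genes 0.01), and in hel-1;daf-2, where 1 was (median -0.35, all genes 0.00), while in hel-1 5 of 10 were (median -0.04). Without daf-2 replicate 2 the log2 fold change of mec-1 was 0.32, that of mec-12 0.31, and mec-10 changed sign to -0.28. In replicates 1 and 2, pharynx markers summed to 659 and 1100 CPM, body wall muscle markers to 2790 and 5370, hypodermis markers to 1070 and 1850, sperm genes to 94.6 and 287, and neuron markers to 532 and 658, with no neuron marker at 0 in replicate 2 and the dopamine synthesis gene cat-2 at 0 in replicate 1. The germline and oocyte genes summed to 12000 and 9380. Sperm genes also stood apart between the wild-type libraries, with a median log2 deviation from each gene's own mean of 1.07 in replicate 1 and -0.88 in replicate 2. The part of these tissues in the difference was not tested.

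**Figure D4:**
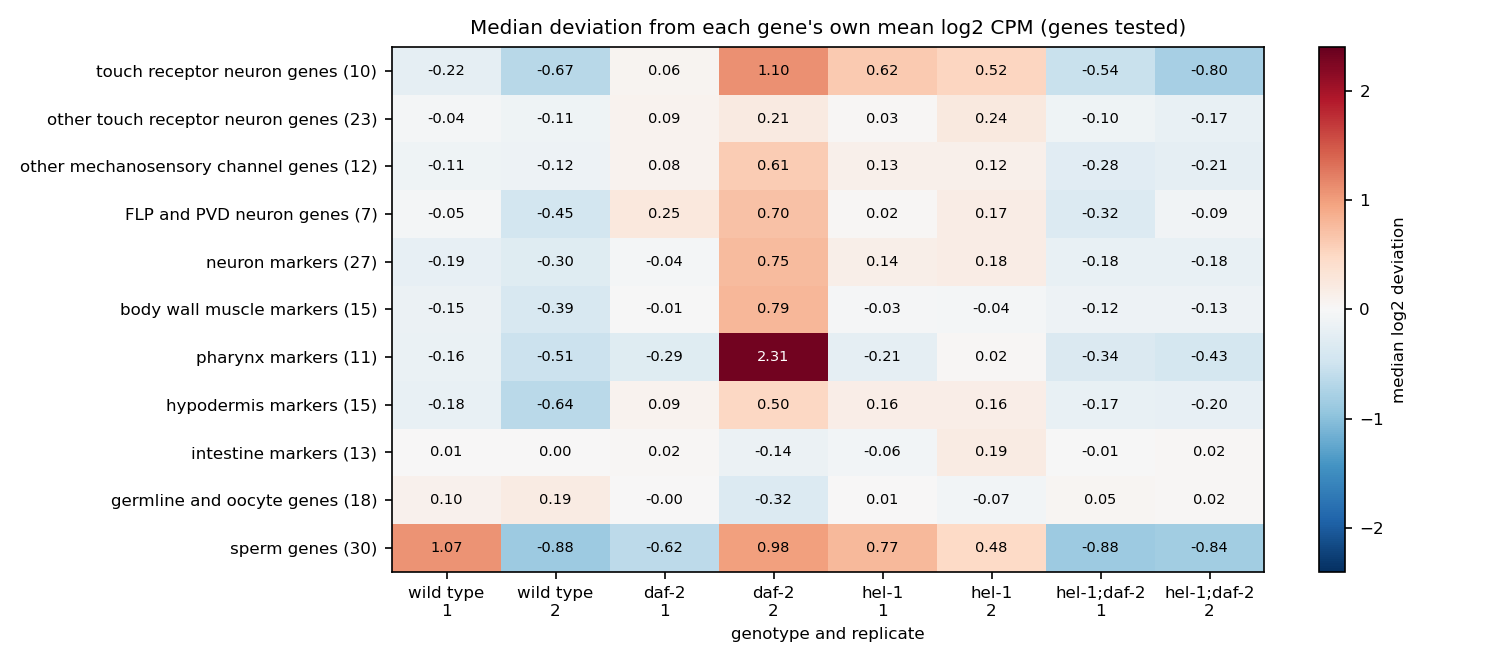
For each list (rows, number of genes tested in brackets) and library (columns), the median over genes of the log2 deviation from the gene's own mean; red is above and blue below the mean. The touch receptor neuron genes stood at 1.10 in daf-2 replicate 2, 0.62 and 0.52 in hel-1 and -0.54 and -0.80 in hel-1;daf-2, while the pharynx list stood at 2.31 in daf-2 replicate 2 and at -0.21 and 0.02 in hel-1.

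The double mutant against daf-2 gives the effect of the helicase mutation when insulin signalling is reduced, and all 10 fitted changes were negative. Their median was -1.47, against -0.02 for all genes tested. In 8 genes both double-mutant libraries lay below both daf-2 libraries, where 28.5% of all genes did, while mec-3 and mec-10 overlapped. Of the 8, mec-4 passed the filter on low counts only through libraries where it is high. unc-86 passed mainly through such libraries, so neither adds support, here or in the counts that follow. None was called by edgeR, where 0.0364% of all genes were called lower; at an unadjusted p under 0.05, 7 were lower (mec-1, mec-2, mec-7, mec-12, mec-17, mec-18 and unc-86), where 12.8% of all genes were. DESeq2 called mec-7, mec-12 and mec-17 (adjusted p = 0.000465, 0.00370 and 7.46e-05). Without daf-2 replicate 2 the median was -0.80; mec-17 stood at -1.47, mec-7 at -1.20 and mec-12 at -0.87, while mec-10 turned to 0.24 and mec-3 to 0.11. Without daf-2 replicate 1 the median was -1.79, against -0.04 for all genes. Neuron markers had a median of -0.76 and pharynx markers of -2.32 in the same comparison, with none called by edgeR. At an unadjusted p under 0.05 there were 12 of 27 and 9 of 11. Both double-mutant libraries lay below both daf-2 libraries in 17 of the 27 neuron markers and above in 2. The part of both lists in the result was not tested.

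The double mutant against hel-1 shows the daf-2 mutation on a hel-1 background. mec-7, mec-12 and mec-17 fell, 3 of 10, where 2.65% of all genes were called lower. In 9 genes the double mutant lay below hel-1 without overlap, where 34.5% of all genes did, and mec-3 overlapped. Of the 9, mec-4 had 6 counts in hel-1 replicate 2 and 6 in hel-1;daf-2 replicate 1, parted only by library scaling, so it adds no support. unc-86 passed the filter on low counts mainly through the single mutants, where it is high, and adds no support either. This comparison does not use the daf-2 libraries other than for the shared spread. The call of mec-17 ended without either hel-1;daf-2 library, that of mec-7 without hel-1 replicate 1 or hel-1;daf-2 replicate 2, and that of mec-12 when any library of either genotype was left out. The log2 fold changes stayed between -2.31 and -1.62 for mec-7 and between -2.03 and -1.71 for mec-17. Neuron markers summed to 486 to 496 CPM in the double mutant, and 2 of 27 fell (median -0.26), the kinesin gene unc-104 (-1.17 ± 0.24, adjusted p = 0.0337) and the Rab3 exchange factor gene aex-3 (-0.83 ± 0.18, adjusted p = 0.0419). Sperm genes summed to 205 to 244 CPM in hel-1 and 81.8 to 84.4 in hel-1;daf-2. By edgeR 0 of 30 were called, 14 had an unadjusted p under 0.05, and the median was -1.57. In 28 of the 30 the double mutant lay below hel-1 without overlap, and in 2 above. The part of these tissues was not tested. Set against the separate neuron marker sum, led by unc-44, snb-1 and unc-11, that of the 10 genes came to 2.82 and 2.17% of its size in hel-1;daf-2. In daf-2 it came to 4.60 and 6.33%.

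The interaction asks whether the hel-1 mutation acted alike in both backgrounds: the change from daf-2 to hel-1;daf-2 minus the change from wild type to hel-1, on the log2 scale. For mec-17 the difference was -2.95 ± 0.35 (adjusted p = 0.0184) and for mec-7 -2.76 ± 0.40 (adjusted p = 0.0299), with hel-1 libraries above those of wild type and double-mutant libraries below those of daf-2. These were 2 of 10 genes, where 0.751% of all genes were called with a negative difference. mec-18 (-3.24 ± 0.68, adjusted p = 0.0830), unc-86 (-2.82 ± 0.64, adjusted p = 0.0924) and mec-12 (-2.32 ± 0.44, adjusted p = 0.0703) did not pass. The median of the 10 was -2.54, against -0.09 for all genes. mec-3, with 5 to 15 counts per library, was at 0.30 ± 0.85 (adjusted p = 0.799). Whether it differs from the other genes was not tested.

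Both interaction calls held without daf-2 replicate 1 and without daf-2 replicate 2, with values from -2.67 to -3.16 for mec-17 and from -2.42 to -3.15 for mec-7 over the fits that left out 1 library. That of mec-7 ended when any other library was left out, and that of mec-17 likewise except without hel-1 replicate 1. Without daf-2 replicate 1 the median of the 10 genes was -2.87, against -0.11 for all genes. By sign alone, 9 of the 10 genes were higher in hel-1 than in wild type and lower in hel-1;daf-2 than in daf-2. Of all genes tested 41.2% had that combination, and mec-4 and unc-86 add no support to the 9. Each sign in turn held in 15 and 15 of 15 body wall muscle markers and 29 and 29 of 30 sperm genes. They held in 24 and 23 of 27 neuron markers, 13 and 13 of 15 hypodermis and 8 and 11 of 11 pharynx markers. The counts were 9 and 4 of 13 for intestine markers and 0 and 0 of 18 for germline and oocyte genes. The combination is not particular to the 10 genes. Of 27 neuron markers unc-13 alone was called, with a negative difference (-1.95 ± 0.24, adjusted p = 0.0200). The list ran from -2.72 (ida-1) to 0.22, with a median of -1.10. Of 30 sperm genes none was called by edgeR, also at an unadjusted p under 0.05 (median -1.56).

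**Figure D5:**
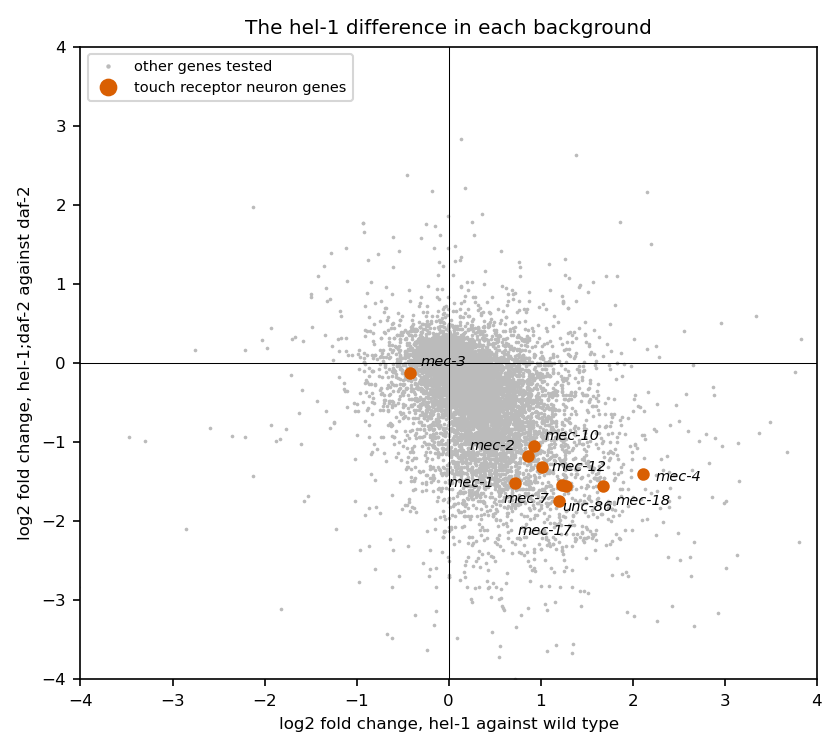
Each point is a gene: horizontally its log2 fold change in hel-1 against wild type and vertically that of the double mutant against daf-2, comparisons that share no library; 33 genes lie outside the axes. Of the 10 touch receptor neuron genes (orange), 9 lie at lower right, a region that holds 41.2% of all genes tested, and mec-3 lies to the left of 0.

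Other genes of touch receptor neurons, a list of 24 written from knowledge of these cells, included several used in many tissues. Of 23 tested, 3 rose in daf-2 against wild type and none fell (median 0.31), a share close to the 12.1% of all genes called higher there. mec-9, which encodes another extracellular protein needed for touch, rose from 0.407 and 0.310 CPM to 0.788 and 1.40 (1.60 ± 0.46, adjusted p = 0.0461). The MAP kinase kinase kinase gene dlk-1 (0.36 ± 0.11, adjusted p = 0.0484) and the beta-spectrin gene unc-70 (0.31 ± 0.07, adjusted p = 0.0289) had smaller changes. From hel-1 to the double mutant, 2 fell. mtd-1, a target of mec-3, went from 1.72 and 1.12 CPM to 0.301 and 0.0627 (-2.94 ± 0.65, adjusted p = 0.0432), and the Hox gene egl-5, which patterns the tail touch neurons, from 1.06 and 1.28 to 0.391 and 0.345 (-1.66 ± 0.35, adjusted p = 0.0372). None passed in the other 3 comparisons by edgeR, where 4, 8 and 13 had an unadjusted p under 0.05 in hel-1, in the double mutant against daf-2 and in the interaction. The best expressed of the list were crt-1, encoding calreticulin, with 908 and 978 CPM in hel-1 and 786 and 892 in wild type, and unc-70, with 147 and 151 CPM in hel-1 and 147 and 135 in wild type.

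Of 19 other mechanosensory channel and stomatin genes 12 were tested, and 1 rose in daf-2: deg-1, a DEG/ENaC channel gene of other neurons, from 0.262 and 0.279 CPM to 0.536 and 1.52 (1.93 ± 0.55, adjusted p = 0.0457). Their medians were 0.27 in hel-1 against wild type and -0.62 in the double mutant against daf-2, with none called by edgeR (1 and 7 at an unadjusted p under 0.05). The best expressed were the Piezo channel gene pezo-1, at 144 and 141 CPM in hel-1 and 154 and 151 in wild type, and the stomatin gene sto-4, whose log2 fold change in hel-1 was 0.24 ± 0.10 (adjusted p = 0.392). Of 8 genes of the FLP and PVD neurons, which share mec-3 with the touch neurons, 7 were tested and 1 rose in daf-2, the proprotein convertase gene kpc-1 (0.51 ± 0.14, adjusted p = 0.0410). The medians of the 7 were 0.33 in hel-1 against wild type and -0.34 in the double mutant against hel-1, where the 10 genes had 1.11 and -1.10. In the other comparisons all 7 had the sign of most of the 10 genes, with medians of 0.77 in daf-2 against wild type, -0.60 in the double mutant against daf-2 and -1.55 in the interaction.

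Of 15 alpha- and beta-tubulin genes 12 were tested, mec-7 and mec-12 among them. tba-4 rose in hel-1 from 62.4 and 61.9 CPM to 84.1 and 93.6 (0.51 ± 0.08, adjusted p = 0.0427) and stood at 53.5 and 57.6 in the double mutant, a fall from hel-1 (-0.68 ± 0.08, adjusted p = 0.00312). tbb-4, at 0.174 and 0.217 CPM in wild type, rose in daf-2 (1.86 ± 0.49, adjusted p = 0.0373), and tba-7, at 3.58 and 4.75 CPM in wild type, rose in daf-2 (1.40 ± 0.19, adjusted p = 0.00557) and hel-1 (1.47 ± 0.19, adjusted p = 0.0289) and stood at 10.5 and 11.5 in the double mutant. tbb-6 rose in daf-2 (1.39 ± 0.30, adjusted p = 0.0227) and hel-1 (2.87 ± 0.30, adjusted p = 0.0130), fell from hel-1 to the double mutant (-1.78 ± 0.28, adjusted p = 0.0140), and passed the interaction test (-3.17 ± 0.41, adjusted p = 0.0227), with 0.843 and 0.900 CPM in wild type, 6.89 and 5.92 in hel-1 and 1.59 and 2.13 in hel-1;daf-2.

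The 5 genes outside the group whose log2 CPM over the 8 libraries was most like the mean of the 10, each scaled to unit variance, were mak-1 (r = 0.994), Y18D10A.23 (0.991), wdr-62 (0.988), srap-1 (0.987) and K11E4.1 (0.984). The kinase gene mak-1 ran in a narrower range, from 76.6 CPM in hel-1;daf-2 replicate 2 to 120 in daf-2 replicate 2. srap-1 spanned 11.7 to 47.6 CPM between the same libraries. These are the highest of 13722 correlations over 8 points and describe likeness in these libraries.

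Reads of overlapping genes limit some values. Exons of mec-17 share 51 bases with arf-5 on the other strand, which had 10110 to 13767 counts, and those of mec-4 share 78 bases with aak-2, which had 798 to 1629. Exons of mec-12 share 76 bases with Y53G8B.1, at 81 to 324 counts and highest in daf-2 replicate 2, and exons of mec-1 share 30 with ptr-15, at 6 to 49. The sources used here do not say whether reads were counted by strand, so reads in these bases cannot be told apart. arf-5 had 12360 and 12142 counts in wild type, 10110 and 11570 in daf-2, 13767 and 11699 in hel-1 and 10990 and 10545 in hel-1;daf-2. The part of its reads in the counts of mec-17 was not tested. mec-7 and mec-12 have close relatives among tubulin genes. Their deposited counts were whole numbers in all 8 libraries, and a count that was not whole occurred only for mec-18 in hel-1 replicate 2, at 45.92, where the overlapping C52B9.10 had 1.08.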

How the data were processed

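Whole-worm RNA of 8 libraries was analysed from expected counts per gene, deposited by the authors and made with RSEM 1.3.1, per the submitters' processing notes. Those notes also name FastQC, cutadapt, TopHat2, Bowtie, HTSeq and edgeR and the builds WBcel235 and ce11. The strand setting and the aligner of the count step are not given in the sources used here. Before testing, values were rounded to whole numbers. Of 46904 genes, 13722 passed edgeR's filterByExpr (default minimum of 10 counts), and so did all 10 genes described. Differences were fitted with edgeR 4.0.16 in R 4.3.3 (TMM factors 0.941 to 1.12, quasi-likelihood test, 1 model of 4 group means, 4 residual degrees of freedom), with Benjamini-Hochberg adjustment over all genes tested and a threshold of 0.05. Standard errors were derived from the F statistic. The fit was tested on simulated data. Correlations and list deviations used log2 CPM with a prior count of 2. DESeq2 1.42.0 was an alternative, beside other scalings, no filter, a fit of the groups compared, a replicate block and leaving out each library.

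Symbols and exon lengths are from the Ensembl WBcel235 annotation, the build the notes name. The 10 genes and the gene lists were chosen with earlier results of these data known. The naming rule took all 10 genes, called members of the neuron and tubulin lists (up to 4 per list and comparison), and the 5 genes most like the mean of the 10. Tissue marker lists are given by counts and summed levels. No sequences are shown.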

Additional observations from a re-analysis of the deposited data

Results flagged for a closer look

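For mec-7 the effect of the hel-1 mutation differed between backgrounds by the interaction term, with a log2 difference of -2.76 (adjusted p = 0.0299, edgeR). The same held for mec-17, at -2.95 (adjusted p = 0.0184). In hel-1 both libraries of each gene lay above both wild-type libraries, and in hel-1;daf-2 both lay below both daf-2 libraries. Groups of 2 libraries are too small for a search for single outlying samples.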

How the results depend on the processing

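Of 700 values that the alternatives gave for the 10 genes in the 5 comparisons, 590 kept both direction and side of the threshold, 65 newly passed it, 37 lost a call and 8 changed sign. The 8, none of them called, all came from leaving out 1 library: mec-10 in daf-2 (range -0.28 to 1.64) and in the double mutant against daf-2 (-1.68 to 0.24), and mec-3 in the double mutant against daf-2 (-1.06 to 0.44), against hel-1 (-0.87 to 0.63) and in the interaction (-0.64 to 0.86). In the order daf-2 and hel-1 against wild type, the double mutant against daf-2 and against hel-1, and interaction, the number of the 10 genes called was 2, 0, 0, 3 and 2. Leaving out 1 library gave 0 to 9, 0 to 3, 0 to 9, 0 to 5 and 0 to 9, and the counts of 9 came without daf-2 replicate 1. All genes called numbered 2649, 57, 7 and 771, and 10 higher with 103 lower in the interaction. They were 278 to 6708, 9 to 477, 0 to 5158, 136 to 2246 and 6 to 6333 with 1 library left out, where the remaining library of that genotype is assumed to vary like those of the others.

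Without the filter on low counts, 7, 3, 4, 4 and 6 of the 10 genes were called, and 3575, 346, 583, 1257 and 1175 genes in all. DESeq2 gave 1, 3, 3, 3 and 4 of the 10 genes and 2928, 246, 256, 833 and 619 in all. Fits of only the groups compared gave 0, 2, 0 and 5 of the 10 genes and 430, 266, 0 and 2867 in all. With library totals and no TMM, 69 genes were called in the interaction, with mec-17 the 1 call among the 10 genes, and 2 genes in the double mutant against daf-2. The cause of these differences was not tested. That scaling moved the median of all genes in daf-2 from 0.10 to 0.27 and split the calls 2307 higher to 553 lower, where TMM gave 1659 to 990 and DESeq2 1488 to 1440; in the double mutant against hel-1 it gave 557 to 327, where TMM gave 407 to 364, and against daf-2 1 to 1, where TMM gave 2 to 5 and DESeq2 size factors 4 to 6. The median of the 10 genes was then 1.29 in daf-2.

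Differences between replicates correlated at -0.46 to 0.17 across genotypes, so replicate numbers were not used to pair samples in the main fit. These correlations cannot tell whether libraries were prepared in pairs. With the replicate number as a block, 1, 0, 0, 3 and 2 of the 10 genes were called, and 11 genes in the double mutant against daf-2. Crossing the daf-2 numbers in that block, chosen after seeing the data because wild type and daf-2 ran opposite (r = -0.46), gave 5 of the 10 genes and 2293 in all in daf-2.

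Counts of at most 36 in mec-3, mec-4, mec-10 and unc-86 limit what can be seen for them.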
